A study of Mus musculus with 12 samples.

Results

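The 9 genes described here, Hspa5, Hsp90b1, Xbp1, Ddit3, Dnajb9, Herpud1, Pdia4, Sdf2l1 and Creld2, are genes of the endoplasmic reticulum (ER) stress response. They were chosen by symbol from the 55335 genes of the expression table, each symbol matched 1 row, and all 9 passed the filter on low values that left 12622 genes to test. The 12 RNA-seq libraries are of BMDMs (bone marrow-derived macrophages, grown in culture from mouse marrow with macrophage colony-stimulating factor). Wild-type and Nlrp3-/- cells were each taken as unstimulated control and after LPS+ATP, with 3 libraries in each of the 4 groups. Lipopolysaccharide (LPS), a bacterial cell wall component, primes the inflammasome built on NLRP3, whose assembly ATP then sets off. The labels give 4 hours of LPS and then 30 min of ATP for the stimulated groups and no stimulation for the control groups, whereas the methods of the study give longer exposures to both agents. Mice were of the C57BL/6 background and of 1 age, the Nlrp3-/- mice being a commercial knockout line and the wild-type mice coming from another supplier. Nothing in the labels says that libraries of a group came from separate animals or cultures, so the p-values measure the spread between these libraries, which may be technical. Values are FPKM (fragments per kilobase, scaled to library depth, comparable between genes by length), and each fold change is a difference of log2(FPKM + 1), a scale on which changes at low FPKM come out too small.

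The ER folds secreted and membrane proteins, and unfolded protein that accumulates there sets off the unfolded protein response (UPR) through 3 sensors, IRE1 (Ern1), PERK (Eif2ak3) and ATF6. IRE1 splices Xbp1 mRNA into the form that encodes the active transcription factor, ATF6 is cut in the Golgi to release its own transcription factor, and PERK phosphorylates eIF2α, which slows translation while favoring that of ATF4. XBP1 and ATF6 raise chaperones and degradation factors of the ER, whereas ATF4 raises amino acid and redox genes and Ddit3, which encodes CHOP. Macrophages are secretory cells, and Toll-like receptor signaling is known to engage parts of this response.

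ATF6 and XBP1 act through short promoter elements, and the 4 promoters among the 9 genes that held one of the motifs searched are shown so that the levels below can be read beside them. Each sequence is the 250 bases before the transcription start in RefSeq (GRCm38.p6), read 5′ to 3′ on the strand of the gene, with the motif in capitals. The ER stress element (ERSE) was searched as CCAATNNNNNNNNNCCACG, ERSE-II as ATTGGNCCACG, the UPR element as TGACGTGG and the composite site of ATF4 and C/EBP factors as TGATGCAA, on both strands.
Hspa5, chr2:34771840-34772089, plus strand: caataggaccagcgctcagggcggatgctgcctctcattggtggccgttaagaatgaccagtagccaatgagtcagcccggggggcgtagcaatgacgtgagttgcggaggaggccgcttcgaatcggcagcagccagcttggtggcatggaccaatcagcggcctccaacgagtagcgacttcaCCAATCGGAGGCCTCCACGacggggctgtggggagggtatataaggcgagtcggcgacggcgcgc
Hsp90b1, chr10:86705445-86705694, minus strand: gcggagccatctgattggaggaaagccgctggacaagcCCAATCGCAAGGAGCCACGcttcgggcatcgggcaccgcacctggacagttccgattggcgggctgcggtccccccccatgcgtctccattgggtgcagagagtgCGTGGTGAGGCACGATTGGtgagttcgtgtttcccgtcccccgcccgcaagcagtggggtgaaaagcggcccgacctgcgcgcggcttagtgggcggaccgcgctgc
Creld2, chr15:88819396-88819645, plus strand: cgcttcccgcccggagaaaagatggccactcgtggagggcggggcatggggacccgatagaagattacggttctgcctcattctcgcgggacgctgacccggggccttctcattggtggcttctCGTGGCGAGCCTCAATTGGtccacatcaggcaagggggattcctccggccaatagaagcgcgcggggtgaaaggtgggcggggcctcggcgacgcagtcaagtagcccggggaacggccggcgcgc
Herpud1, chr8:94386179-94386428, plus strand: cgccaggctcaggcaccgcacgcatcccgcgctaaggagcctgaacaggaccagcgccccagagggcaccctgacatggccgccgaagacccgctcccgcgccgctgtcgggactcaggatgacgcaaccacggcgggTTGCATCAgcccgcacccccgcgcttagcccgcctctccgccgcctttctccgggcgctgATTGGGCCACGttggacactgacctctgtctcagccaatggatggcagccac
The ERSE of Hspa5 lay 65 to 47 bases before the start, on the strand of the gene. Hsp90b1 held 2 ERSEs, one 212 to 194 bases before the start on the strand of the gene and one 107 to 89 bases before it on the opposite strand. The ERSE of Creld2 lay 126 to 108 bases before the start on the opposite strand. Herpud1 held no ERSE but an ERSE-II 52 to 42 bases before the start and, on the opposite strand, an ATF4 composite site 112 to 105 bases before it, the 2 not overlapping. Of 32851 RefSeq promoters of 300 bases, which run 50 bases past the start, 0.119% held an ERSE, 0.0365% an ERSE-II, 0.676% a UPR element and 0.895% an ATF4 composite site. The promoters of Xbp1, Ddit3, Dnajb9, Pdia4 and Sdf2l1 held none of these letters in that window, which says nothing about binding elsewhere or with other letters. For Xbp1 and Pdia4 the last 40 bases of the promoter were not found in a transcript of the gene, so the place of their window is less certain.

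Depth, as read from the steps between low FPKM values, ran from 1.0 to 1.218 relative to the shallowest library. Only ratios within a set window around equal depth were read, so a much larger difference could not have come out. The number of reads is not given by FPKM. Nlrp3 was 9.24 to 10.1 FPKM in wild-type control, 32.1 to 33.7 FPKM in wild-type LPS+ATP and listed at 0 in all 6 Nlrp3-/- libraries. Xist was at least 32.8 FPKM in Nlrp3-/- libraries and at most 0.0416 FPKM in wild-type libraries, and Nnt, which differs between C57BL/6 substrains, ran from 4.09 to 10.3 FPKM in wild-type libraries but only from 0.670 to 1.47 FPKM where Nlrp3 was deleted, so the effects of genotype, donor sex and substrain cannot be told apart. The 5 macrophage markers Adgre1, Csf1r, Cd68, Lyz2 and Mertk summed to 19670 to 20840 FPKM in wild-type control and 10920 to 10980 FPKM after LPS+ATP, and to 18800 to 19040 and 10340 to 10590 FPKM in Nlrp3-/- libraries, and none was near 0. Lyz2 made up most of this sum, at 18460 and 9471 FPKM in wild-type and 17690 and 9309 FPKM in Nlrp3-/- BMDMs without and with LPS+ATP. The 5 markers did not move together, since 1 rose and 4 fell in wild-type and 2 rose and 3 fell in Nlrp3-/- BMDMs. Adgre1 rose in both, from 237 to 460 FPKM and from 184 to 327 FPKM. The lower sum with LPS+ATP stood beside every stimulation result below, and its part in them was not tested. Of the other cells a marrow culture can hold, 6 fibroblast markers summed to 157 to 162 FPKM in wild-type control and 181 to 183 FPKM after LPS+ATP, and to 1165 to 1182 and 891 to 907 FPKM in Nlrp3-/- libraries. The 6 neutrophil markers summed to 230.4 to 263 FPKM in wild-type control, 306 to 318 FPKM after LPS+ATP, and 1386 to 1429 and 619 to 621 FPKM in Nlrp3-/- libraries. Of the 5 tested neutrophil markers, only Lcn2 rose with LPS+ATP in each genotype, from 9.96 to 218 FPKM in wild-type, and 4 fell. The higher wild-type sum after LPS+ATP was thus that of Lcn2 and not of the list. The 6 B cell and plasma cell markers, the latter a cell type with high UPR gene expression, summed to 17.6 to 20.02 FPKM in wild-type control and 6.55 to 7.11 FPKM after LPS+ATP, against 22.1 to 25.0 and 14.0 to 14.7 FPKM in Nlrp3-/- libraries.

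LPS+ATP raised most of the 9 genes in both genotypes, but not together. In wild-type BMDMs, 6 of 9 were up-regulated at an adjusted p under 0.05, the chaperones Hspa5 and Hsp90b1, the disulfide isomerase Pdia4, Creld2, Dnajb9 and Ddit3, against 23.3% of all 12622 tested genes. Sdf2l1 and Herpud1 were down-regulated, against 53.1% of all genes, and Xbp1 did not pass the test. In Nlrp3-/- BMDMs, 7 of 9 were up-regulated, the same 6 and Xbp1, against 20.6% of all genes, and 0 of 9 were down-regulated, against 53.8% of all genes (by limma, at an unadjusted p under 0.05 also 0 of 9). The median log2 fold change of the 9 genes was 0.33 in wild-type and 0.52 in Nlrp3-/- BMDMs, beside -0.25 and -0.24 over all tested genes.

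**Figure D1:**
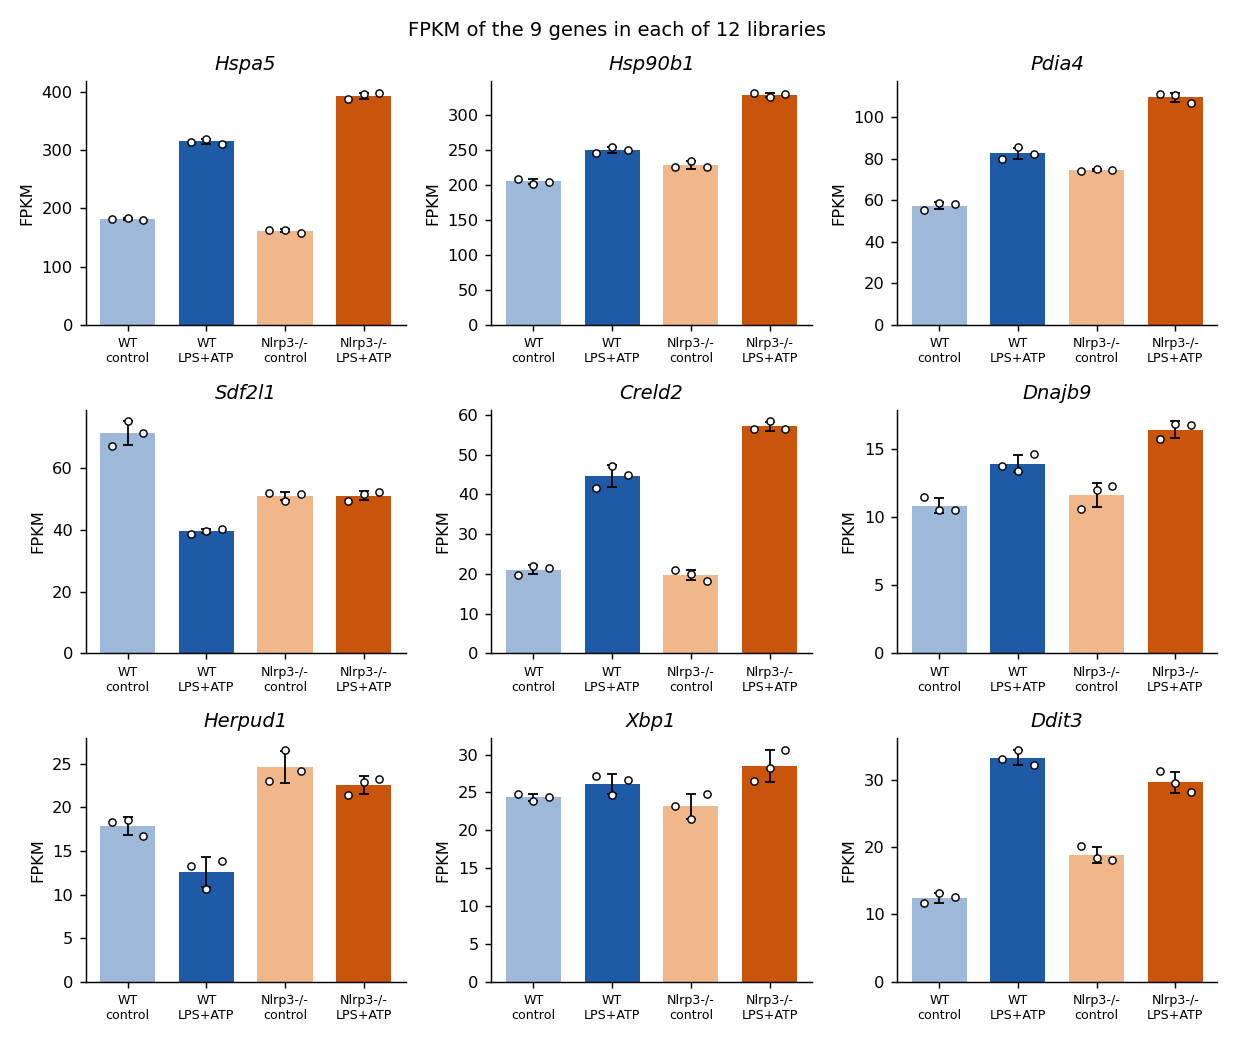
FPKM (y axes, linear from 0, a scale for each gene) of the 9 genes in wild-type (blue) and Nlrp3-/- (orange) BMDMs without (light) and with (dark) LPS+ATP; bars are means, whiskers SD over 3 libraries and circles single libraries. Hspa5, Hsp90b1, Pdia4 and Creld2 were highest in Nlrp3-/- LPS+ATP, whereas Sdf2l1 was highest in wild-type control and Ddit3 in wild-type LPS+ATP.

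Hspa5 (ENSMUSG00000026864) encodes BiP, the ER HSP70 chaperone that holds the sensors inactive and is the usual readout of the response. It was 182, 184 and 179.6 FPKM in the 3 wild-type control libraries and 315, 320.3 and 312 FPKM with LPS+ATP. The Nlrp3-/- libraries were at 163.7, 163.5 and 158 FPKM in control and 388, 396 and 398 FPKM with LPS+ATP. No library of one group overlapped those of another. Mean FPKM rose 1.74-fold in wild-type BMDMs, with a log2 fold change of 0.79 (SE 0.024, limma adjusted p = 6.72e-11). It rose 2.43-fold in Nlrp3-/- BMDMs, with a log2 fold change of 1.28 (SE 0.024, adjusted p = 1.67e-12). The response in Nlrp3-/- exceeded that in wild-type BMDMs by 0.49 on the log2 scale (SE 0.033, adjusted p of the interaction 2.20e-06).

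Hsp90b1 encodes GRP94, the ER HSP90 that folds integrins and Toll-like receptors. Its level was near that of Hspa5 in control libraries, at 209, 201 and 205 FPKM in wild-type control, and it reached 246, 254 and 249.6 FPKM with LPS+ATP. The Nlrp3-/- libraries held 225.3, 234 and 225.2 FPKM in control and 331, 326 and 329.6 FPKM with LPS+ATP. The 4 groups did not overlap, and the stimulated libraries were above their controls in each genotype. The log2 fold change was 0.28 in wild-type BMDMs (SE 0.025, limma adjusted p = 1.01e-06) and 0.52 in Nlrp3-/- BMDMs (adjusted p = 6.00e-09). Their difference was 0.24 (SE 0.036, adjusted p = 0.000502). With LPS+ATP, Hsp90b1 therefore rose in each genotype as Hspa5 did, by smaller steps. In the annotation 415 of its 4032 exon bases overlap the opposite-strand pseudogene 1810014B01Rik, which was 4.64 to 7.80 FPKM, and whether counting used strand is not given in the sources used here.

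Pdia4 encodes ERp72, a protein disulfide isomerase of the ER. It was 55.6, 58.8 and 58.1 FPKM in wild-type control, a mean of 57.5 ± 1.70 FPKM (SD, n = 3), and 80.1, 85.6 and 82.5 FPKM with LPS+ATP. Its Nlrp3-/- libraries were at 74.4, 75.3 and 74.5 FPKM in control and 111.1, 110.7 and 107 FPKM with LPS+ATP. Pdia4 rose by similar steps in both genotypes from different starting levels. The log2 fold change was 0.52 in wild-type (limma adjusted p = 4.98e-08) and 0.55 in Nlrp3-/- BMDMs (adjusted p = 4.12e-08), and the interaction was 0.03 (SE 0.046, adjusted p = 0.698), with its sign turned to -0.01 by median-ratio scaling.

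Sdf2l1 encodes a subunit that keeps BiP and its ER-resident DNAJ partner ERdj3 in their chaperone cycle. It was 67.3, 75.2 and 71.5 FPKM in wild-type control and 38.8, 39.7 and 40.4 FPKM with LPS+ATP. The Nlrp3-/- libraries were at 52.0, 49.5 and 51.7 FPKM in control and 49.4, 51.6 and 52.3 FPKM with LPS+ATP. Thus all wild-type control libraries lay above and all wild-type LPS+ATP libraries below the 6 Nlrp3-/- libraries, whose 2 groups overlapped. In wild-type BMDMs mean FPKM with LPS+ATP was 0.556 times that of control (log2 fold change -0.83, SE 0.042, limma adjusted p = 7.19e-09). The log2 fold change was 0.00 in Nlrp3-/- BMDMs (SE 0.042, adjusted p = 0.981), and it became 0.29 with an adjusted p of 8.78e-05 under median-ratio scaling. The interaction was 0.83 (SE 0.059, adjusted p = 2.89e-06), the largest in absolute size among the 9 genes.

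Creld2, an ER protein with disulfide isomerase activity that is secreted under ER stress, was 19.8, 22.0 and 21.4 FPKM in wild-type control and 41.6, 47.2 and 45.0 FPKM with LPS+ATP. The Nlrp3-/- libraries went from 20.9, 19.9 and 18.3 FPKM to 56.51, 58.5 and 56.50 FPKM. Control libraries of the genotypes overlapped, and stimulated libraries did not. Mean FPKM rose 2.12-fold in wild-type (log2 fold change 1.05, SE 0.059, limma adjusted p = 1.88e-08) and 2.91-fold in Nlrp3-/- BMDMs (1.49, adjusted p = 1.11e-09). The interaction was 0.45 (SE 0.083, adjusted p = 0.00225). Over the 12 libraries its log2 values followed those of Hspa5 most closely of any pair among the 9 genes (Pearson's r = 0.995, a description over libraries that share treatment and genotype).

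Dnajb9 encodes ERdj4, a co-chaperone of BiP that represses IRE1 and is a target of spliced XBP1. It was the gene with the lowest level of the 9 in wild-type control, at 11.5, 10.54 and 10.50 FPKM, and was 13.7, 13.4 and 14.6 FPKM with LPS+ATP. The Nlrp3-/- libraries were at 10.6, 11.98 and 12.3 FPKM in control and 15.7, 16.82 and 16.75 FPKM with LPS+ATP. Stimulated libraries were above controls in each genotype without overlap. The log2 fold change was 0.33 in wild-type (SE 0.059, limma adjusted p = 0.000326) and 0.47 in Nlrp3-/- BMDMs (adjusted p = 2.63e-05), and their difference of 0.13 did not pass the test (SE 0.084, adjusted p = 0.281).

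Herpud1 encodes an ER membrane protein of the complex that degrades misfolded ER proteins. It was 18.3, 18.5 and 16.7 FPKM in wild-type control and 13.2, 10.7 and 13.8 FPKM with LPS+ATP. Libraries of Nlrp3-/- BMDMs were at 23.1, 26.6 and 24.2 FPKM in control and 21.4, 22.9 and 23.3 FPKM with LPS+ATP. Every Nlrp3-/- library was above every wild-type library, and LPS+ATP libraries lay below control only in wild-type, since the Nlrp3-/- groups overlapped. The log2 fold change was -0.48 in wild-type (SE 0.087, limma adjusted p = 0.000381), which fell short of the threshold under median-ratio scaling at -0.17 (adjusted p = 0.102). It was -0.12 in Nlrp3-/- BMDMs (adjusted p = 0.224) and 0.16 under median-ratio scaling (adjusted p = 0.129). The interaction of 0.36 had an adjusted p of 0.0520, which became 0.0449 with a filter of FPKM at least 5. Leaving out wild-type control replicate 3, wild-type LPS+ATP replicate 3 or Nlrp3-/- control replicate 2 brought it to 0.0467, 0.0282 and 0.0401.

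Xbp1 encodes the transcription factor of the IRE1 branch, and gene-level FPKM does not separate its spliced from its unspliced mRNA. It was 24.8, 23.9 and 24.4 FPKM in wild-type control and 27.1, 24.7 and 26.7 FPKM with LPS+ATP. The Nlrp3-/- libraries were at 23.2, 21.5 and 24.8 FPKM in control and 26.5, 28.2 and 30.7 FPKM with LPS+ATP. The groups overlapped in wild-type, where the log2 fold change was 0.10 (SE 0.062, limma adjusted p = 0.1696), rising to 0.42 (adjusted p = 7.14e-05) under median-ratio scaling. In Nlrp3-/- BMDMs the groups did not overlap and the log2 fold change was 0.28 (adjusted p = 0.00162). The interaction of 0.18 did not pass the test (SE 0.088, adjusted p = 0.150), so the responses of Xbp1 were not shown to differ between genotypes.

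Ddit3, which encodes the CHOP transcription factor of the PERK-ATF4 branch, had the opposite order of responses. It was 11.7, 13.1 and 12.7 FPKM in wild-type control and 33.2, 34.5 and 32.3 FPKM with LPS+ATP. Levels in Nlrp3-/- BMDMs were 20.1, 18.4 and 18.1 FPKM in control and 31.3, 29.6 and 28.1 FPKM with LPS+ATP. The 4 groups did not overlap, and the Nlrp3-/- libraries lay between the wild-type groups. Mean FPKM rose 2.67-fold in wild-type (log2 fold change 1.35, SE 0.057, limma adjusted p = 1.48e-09) and 1.57-fold in Nlrp3-/- BMDMs (0.63, adjusted p = 1.56e-06). The interaction was -0.72 (SE 0.081, adjusted p = 6.88e-05), the only negative one of the 9 genes on this scale. Its exons overlap 68 bases of the opposite-strand gene Mars, a methionyl-tRNA synthetase gene. The mean of Mars went from 10.4 to 15.5 FPKM with LPS+ATP in wild-type and from 15.3 to 22.1 FPKM in Nlrp3-/- BMDMs. Its part in the values of Ddit3 was not tested.

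With the further limit of a log2 fold change of at least 1, Ddit3 and Creld2 were called up-regulated in wild-type and Hspa5 and Creld2 in Nlrp3-/- BMDMs, 2 of 9 each against 8.25% and 6.64% of all genes. Under that limit 0 of 9 were called down-regulated by limma in either genotype, against 11.2% and 8.21% of all genes, the unadjusted p of Sdf2l1 and Herpud1 in wild-type being under 0.05. The 9 genes together took 0.2% to 0.205% of the FPKM sum of a library in wild-type control and 0.282% to 0.287% after LPS+ATP, against 0.205% to 0.209% and 0.364% to 0.367% in Nlrp3-/- libraries. In bulk RNA, a change in the RNA per cell and a change in the number of cells of a type cannot be told apart. Scaling the libraries by median ratios in place of FPKM alone brought the median of all genes from -0.25 for wild-type and -0.24 for Nlrp3-/- BMDMs to 0. Of the 9 genes, 7 then rose and 1 fell in wild-type and 8 rose and 0 fell in Nlrp3-/- BMDMs, with medians of 0.64 and 0.82. Over all genes, the share of higher ones among those passing went from 30.5% to 50.4% in wild-type. In Nlrp3-/- BMDMs that share went from 27.6% to 50.5%, so the counts of the 9 genes moved with a shift of all genes. The scaling turned the called genes from 1041 higher and 1411 lower to 1406 and 872 in wild-type, and from 838 and 1036 to 1094 and 602 in Nlrp3-/- BMDMs.

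**Figure D2:**
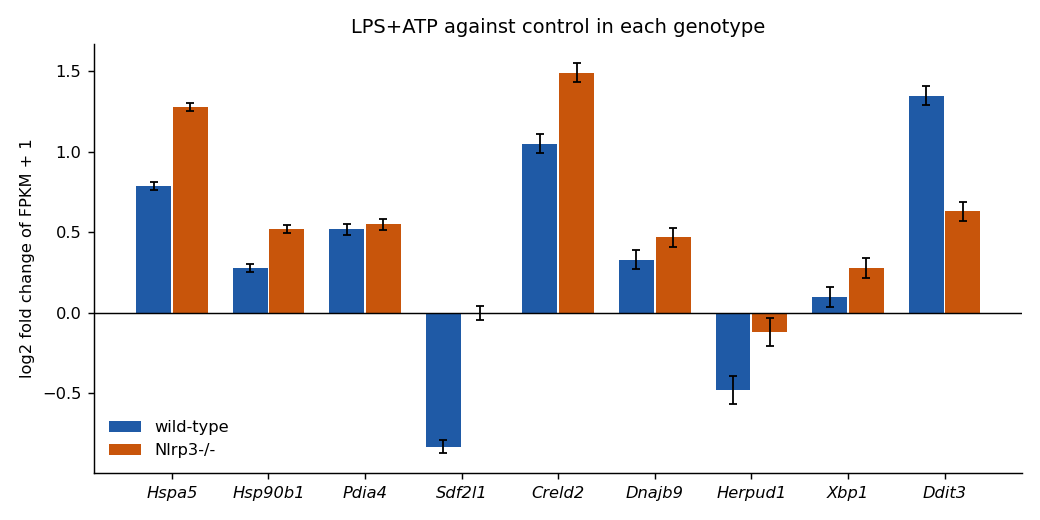
Log2 fold change of FPKM + 1 (y axis) of each of the 9 genes (x axis) with LPS+ATP against control in wild-type (blue) and Nlrp3-/- (orange) BMDMs; whiskers are the SE of the limma fit over 3 against 3 libraries. Ddit3 rose more in wild-type, Hspa5, Hsp90b1 and Creld2 rose more in Nlrp3-/- BMDMs, and Sdf2l1 fell in wild-type BMDMs with a value of 0.00 in Nlrp3-/- BMDMs.

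The second question of the design is how the genotypes differ in each state. Without stimulation, Ddit3, Herpud1, Pdia4 and Hsp90b1 were higher in Nlrp3-/- than in wild-type BMDMs, 4 of 9 against 33.3% of all genes, and Sdf2l1 and Hspa5 were lower, 2 of 9 against 14.5% of all genes. None reached a log2 fold change of 1 by limma, against 6.02% of all genes higher and 0.689% lower, and 6 of 9 had an unadjusted p under 0.05. The largest difference was that of Ddit3, 1.51-fold in mean FPKM (log2 fold change 0.56, limma adjusted p = 9.16e-06). Herpud1 was 0.44 higher (adjusted p = 0.00140), Pdia4 0.37 higher (adjusted p = 2.42e-06) and Sdf2l1 lower, at -0.47 (adjusted p = 2.79e-06). Hspa5 differed less, at -0.17 (adjusted p = 0.000131), and Hsp90b1 at 0.15 (adjusted p = 0.000381), the latter 0.00 under median-ratio scaling. Xbp1, Dnajb9 and Creld2 overlapped between genotypes at -0.07, 0.09 and -0.10 (adjusted p 0.400, 0.226 and 0.210), Dnajb9 turning to -0.05 under median-ratio scaling. Under that scaling 3 of 9 were higher, Ddit3, Herpud1 and Pdia4, and 4 lower, since Xbp1 (-0.22, adjusted p = 0.0122) and Creld2 (-0.24, adjusted p = 0.00602) passed beside Sdf2l1 and Hspa5, the last at -0.32.

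With LPS+ATP, 7 of 9 genes were higher in Nlrp3-/- BMDMs, against 35.9% of all genes, and Ddit3 alone was lower, against 12.6% of all genes. Herpud1 showed the largest difference, 1.79-fold in mean FPKM (log2 fold change 0.80, SE 0.087, limma adjusted p = 1.64e-05). Pdia4, Hsp90b1, Sdf2l1, Creld2 and Hspa5 were higher by 0.40, 0.39, 0.36, 0.35 and 0.32, with adjusted p from 2.16e-07 for Hsp90b1 to 0.000460 for Creld2. Under median-ratio scaling they still passed, at 0.21, 0.20, 0.17, 0.17 and 0.13. Dnajb9 was 0.23 higher (adjusted p = 0.00848) and did not pass under median-ratio scaling at 0.05 (adjusted p = 0.552). Ddit3 was lower at -0.16 (adjusted p = 0.0347), a call lost in TPM (adjusted p = 0.0702), without the filter on low FPKM (0.0681), and without wild-type LPS+ATP replicate 1 or 2 or Nlrp3-/- LPS+ATP replicate 2 or 3 (0.0701 to 0.125), and its value was -0.35 under median-ratio scaling. Xbp1 was at 0.12 (adjusted p = 0.150), turning to -0.07 under median-ratio scaling. By limma 0 of 9 reached a log2 fold change of 1 in either direction, against 4.48% higher and 0.570% lower over all genes, and 8 of 9 had an unadjusted p under 0.05.

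The medians over the 9 genes were 0.09 without and 0.35 with stimulation, beside 0.09 and 0.11 over all genes. Under median-ratio scaling they were -0.05 and 0.17, beside -0.03 and -0.04 over all genes. That scaling moved the share of higher genes among those passing from 69.6% to 44.0% and from 74.0% to 45.1%. The fibroblast and neutrophil marker sums given above were higher in the Nlrp3-/- libraries in both states, and their part in the genotype differences of the 9 genes was not tested. Each stimulation comparison shares a group with each genotype comparison, so their values for a gene are not independent.

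**Figure D3:**
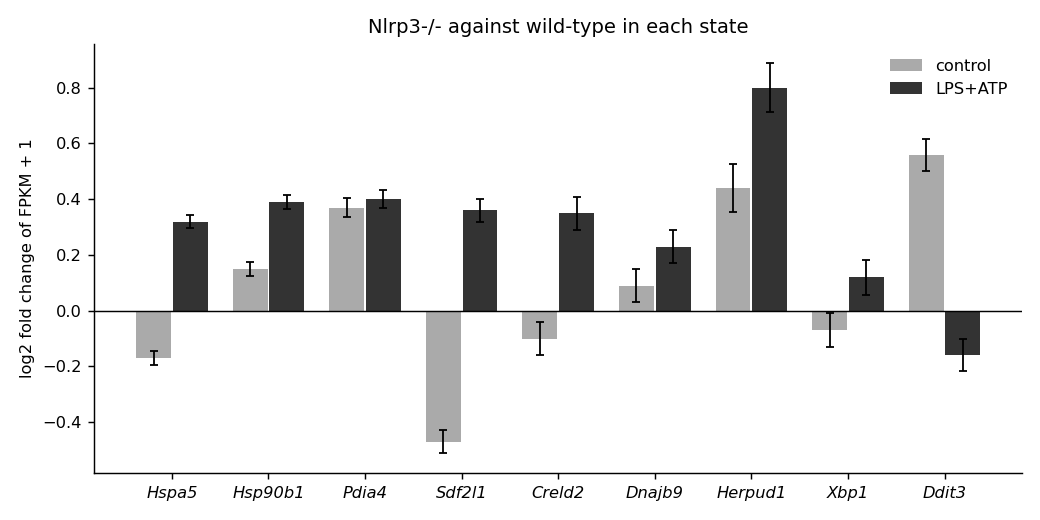
Log2 fold change of FPKM + 1 (y axis) of the 9 genes (x axis) in Nlrp3-/- against wild-type BMDMs in control (gray) and with LPS+ATP (black); whiskers are the SE of the limma fit over 3 against 3 libraries. Sdf2l1 went from -0.47 in control to 0.36 with LPS+ATP, Hspa5 from -0.17 to 0.32 and Ddit3 from 0.56 to -0.16.

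The difference between the responses of the genotypes was tested as an interaction. The response was larger in Nlrp3-/- BMDMs for Sdf2l1, Hspa5, Creld2 and Hsp90b1, 4 of 9 against 14.7% of all genes, and smaller for Ddit3, 1 of 9 against 13% of all genes. None of the 9 reached an absolute difference of 1 by limma, against 0.721% of all genes higher and 1.43% lower, and 6 of 9 had an unadjusted p under 0.05. The terms of these 5 genes kept their sign and passed the test in each of the 20 alternatives run, Sdf2l1 between 0.79 and 0.87, Hspa5 between 0.44 and 0.50, Creld2 between 0.40 and 0.49, Hsp90b1 between 0.19 and 0.26 and Ddit3 between -0.77 and -0.67. The response to LPS+ATP was thus smaller in Nlrp3-/- than in wild-type BMDMs for Ddit3 and larger for the chaperones Hspa5 and Hsp90b1.

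The sensors and 6 lists of other UPR and ER genes, 98 genes of which 97 were tested, were set beside the 9 genes. The list of 11 sensors and transcription factors was mixed, with 4 up and 5 down in wild-type and 3 up and 4 down in Nlrp3-/- BMDMs. Over all genes 23.3% rose and 53.1% fell in wild-type, and 20.6% and 53.8% in Nlrp3-/- BMDMs. Under median-ratio scaling the list counts became 6 and 5, and 7 and 2. Atf6b of this list rose by 0.57 and 0.64 (limma adjusted p = 3.37e-08 and 1.55e-08). The 3 sensors fell in wild-type BMDMs. Eif2ak3 went from 7.82 ± 0.389 to 3.01 ± 0.161 FPKM (SD, n = 3, log2 fold change -1.14, limma adjusted p = 3.63e-09), Atf6 from 14.0 to 7.47 FPKM (-0.82, adjusted p = 1.70e-08) and Ern1 from 9.82 to 6.28 FPKM (-0.57, adjusted p = 1.61e-06). Without Nlrp3, Eif2ak3 fell by 0.70 on the log2 scale and Atf6 by 0.58 (adjusted p = 3.32e-07 and 4.85e-07), while Ern1 was at -0.09 (adjusted p = 0.138). The interaction passed for all 3 sensors, at 0.48 for Ern1, 0.44 for Eif2ak3 and 0.25 for Atf6 (adjusted p = 0.000773, 0.00142 and 0.0163). Atf4, the transcription factor downstream of PERK, rose from 45.1 ± 9.47 to 139 ± 25.5 FPKM in wild-type (1.61, adjusted p = 1.48e-05) and from 62.1 ± 12.9 to 111.5 ± 10.5 FPKM in Nlrp3-/- BMDMs (0.85, adjusted p = 0.00202), and its interaction of -0.75 did not pass the test (adjusted p = 0.0648).

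The PERK-ATF4-CHOP targets, 16 genes of the branch to which Ddit3 belongs, had the highest median of the 6 lists in both genotypes. In wild-type BMDMs 14 of 16 rose and 1 fell, against 23.3% and 53.1% of all genes, with a median log2 fold change of 1.22. The gene that fell was the pro-apoptotic gene Bbc3 (-0.75, limma adjusted p = 2.23e-06). The largest rises were those of the cystine transporter gene Slc7a11 (4.87), the transcription factor gene Cebpb (2.41) and the asparagine synthetase gene Asns (1.90), with adjusted p of at most 5.76e-10. Without Nlrp3, 14 of 16 also rose, against 20.6% of all genes, with a median of 0.60. Slc7a11, Cebpb and the eIF2α phosphatase subunit gene Ppp1r15a led at 3.95, 1.63 and 1.43. Without stimulation 14 of 16 were higher in Nlrp3-/- BMDMs, against 33.3% of all genes, with a median of 0.79, as Ddit3 was (11 of 16 and 0.67 under median-ratio scaling). Trib3, the pseudokinase gene induced by CHOP, was 3.25 FPKM in wild-type control against 14.5 FPKM in Nlrp3-/- control (log2 fold change 1.87, limma adjusted p = 7.12e-09), and Chac1, which encodes a glutathione-degrading enzyme, was 1.08 and 6.20 FPKM (1.79, adjusted p = 3.83e-09). The interaction was negative and passed for 12 of 16 and positive for 0, against 13% and 14.7% of all genes. Its median was -0.41, beside 0.02 over all genes. Most neutrophil and fibroblast markers moved the same way. Their interaction was negative and passed for 4 of 5 tested neutrophil markers (median -2.08) and 4 of 6 fibroblast markers (median -0.45). The B cell and plasma cell markers did not, with 1 of 3 tested positive and 0 negative (median 0.10). The part of these markers in the result was not tested. Between the genotypes with LPS+ATP, 8 of 16 targets were at higher and 5 at lower levels without Nlrp3 (6 and 6 under median-ratio scaling). Of all genes, 35.9% were higher and 12.6% lower. The targets were led by Ddit4 at 1.27, Vldlr at 0.99 and Atf3 at -0.99 (adjusted p of at most 1.62e-06).

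The ER chaperones and co-chaperones, 18 genes beside Hspa5 and Hsp90b1, were split in wild-type BMDMs. There 5 rose and 7 fell, against 23.3% and 53.1% of all genes, with a median of -0.01. Dnajc1 (1.56) and Manf (0.70), a secreted ER protein that binds BiP, rose and Cnpy2 fell (-0.76), with limma adjusted p of at most 1.38e-06. In Nlrp3-/- BMDMs 11 rose and 3 fell, against 20.6% and 53.8% of all genes, with a median of 0.19. Dnajc1 (1.39), Manf (1.11) and the HSP110 chaperone gene Hyou1 (1.05) led, with adjusted p of at most 3.22e-07. The interaction was positive and passed for 11 of 18 and negative for 0, against 14.7% and 13% of all genes, with a median of 0.23. The lectin chaperone Calr, for example, was 416 ± 4.31 and 415 ± 6.05 FPKM in wild-type without and with LPS+ATP and 435 ± 2.15 and 534 ± 2.45 FPKM in Nlrp3-/- BMDMs (SD, n = 3, interaction 0.30, adjusted p = 1.96e-05). Thus the list that holds Calr and the PERK-ATF4-CHOP list had interaction terms of opposite sign, as Hspa5 and Ddit3 had. Under median-ratio scaling the counts in wild-type became 12 up and 3 down, and the interaction counts 9 and 0 for the chaperones and 0 and 12 for the PERK-ATF4-CHOP targets.

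Of 15 disulfide bond enzymes, 3 rose and 4 fell in wild-type and 5 rose and 6 fell in Nlrp3-/- BMDMs, with Ero1a, the oxidase that recharges disulfide isomerases, at 2.62 and 1.63 and Erp29 at -1.29 and -0.73 (limma adjusted p of at most 6.97e-08). The interaction of Ero1a was negative like that of Ddit3, at -0.99 (adjusted p = 4.01e-05). Of 21 tested genes of ER-associated degradation, the process of Herpud1, 8 rose and 6 fell in wild-type and 9 rose and 5 fell in Nlrp3-/- BMDMs. Edem1, a mannosidase-like factor of that process, went from 70.3 to 34.6 FPKM in wild-type (adjusted p = 6.00e-11) and from 49.9 to 34.7 FPKM in Nlrp3-/- BMDMs, so that, like Sdf2l1, its fall was smaller in Nlrp3-/- BMDMs (interaction 0.49, adjusted p = 9.71e-06). Of 16 genes of ER translocation, 4 rose and 7 fell in wild-type, and 4 rose and 4 fell in Nlrp3-/- BMDMs. Beside the counts of these lists, 23.3% of all tested genes rose and 53.1% fell in wild-type, and 20.6% and 53.8% in Nlrp3-/- BMDMs. Over the 97 genes, 38 rose and 30 fell in wild-type and 46 rose and 23 fell in Nlrp3-/- BMDMs, with medians of 0.07 and 0.10. Under median-ratio scaling 63 rose and 17 fell in wild-type and 68 rose and 7 fell in Nlrp3-/- BMDMs. The median in wild-type and Nlrp3-/- BMDMs then turned from -0.06 and -0.10 to 0.25 and 0.18 for the disulfide bond enzymes and from -0.26 and -0.15 to 0.04 and 0.12 for translocation, and that of degradation went from 0.11 and 0.09 to 0.41 and 0.36.

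Between genotypes, 41 of the 97 genes were higher and 19 lower in Nlrp3-/- than in wild-type control BMDMs, and 46 were higher and 11 lower with LPS+ATP, beside 33.3% and 14.5%, and 35.9% and 12.6%, of all genes. This balance depended on the scaling, since under median ratios 21 were higher and 37 lower in control and 27 higher and 24 lower with LPS+ATP. The ER disulfide isomerase gene Pdia5 was higher in Nlrp3-/- BMDMs in both states, by 1.55 and 1.10 on the log2 scale (limma adjusted p = 1.88e-10 and 4.19e-09), as its relative Pdia4 was by 0.37 and 0.40. Qsox1, a secretory-pathway sulfhydryl oxidase gene, was higher by 1.10 and 0.95 (adjusted p = 9.26e-08 and 3.81e-07), and Fkbp11, an ER prolyl isomerase gene, by 0.90 and 1.02 (adjusted p = 1.48e-05 and 5.88e-06). These values stood beside the higher fibroblast, neutrophil and B cell and plasma cell marker sums of the Nlrp3-/- libraries, whose part in them was not tested. Lower in Nlrp3-/- control were Sec11c of the translocation list, Edem1, and Fkbp2 of the chaperone list. They were at -0.54, -0.49 and -0.42 (limma adjusted p = 9.91e-06, 1.13e-07 and 0.0044). Among the degradation genes, Edem2 was lower in both states, at -0.33 and -0.32 (adjusted p = 6.47e-05 and 8.80e-05), whereas Herpud1 was higher in both.

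**Figure D4:**
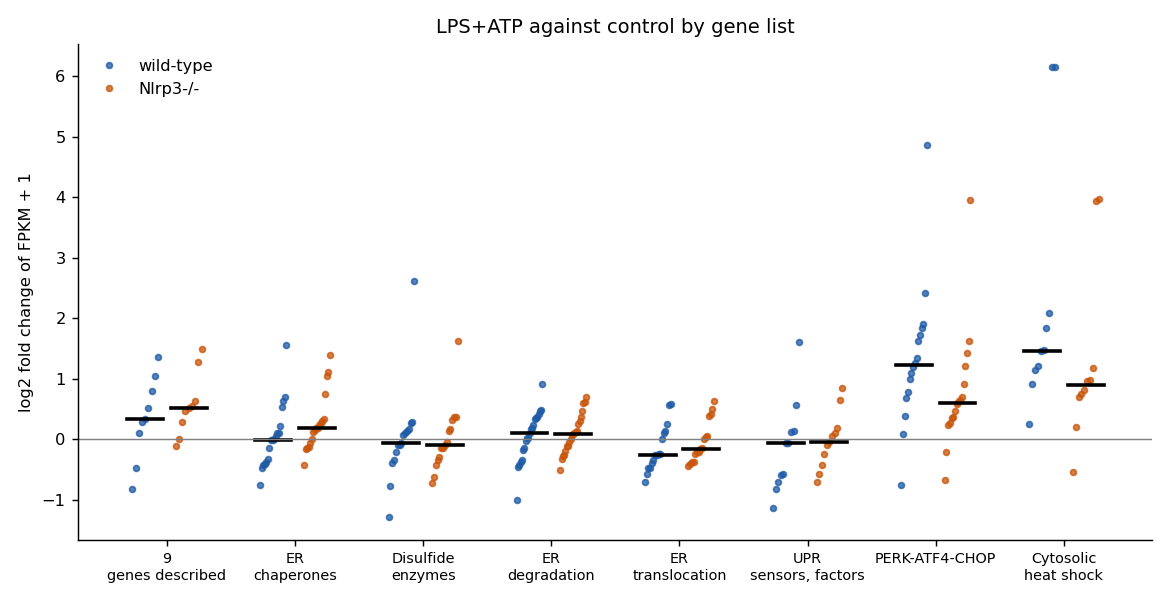
Log2 fold change of FPKM + 1 with LPS+ATP against control (y axis) for the 9 genes and the genes of each list (x axis) in wild-type (blue) and Nlrp3-/- (orange) BMDMs; a point is a gene and a black bar the median. The medians of the PERK-ATF4-CHOP list were 1.22 and 0.60 and those of the chaperone list -0.01 and 0.19.

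The promoter motifs shown for Hspa5, Hsp90b1 and Creld2 were also found in 3 of the 15 chaperone genes with a RefSeq promoter, Calr, Canx and Dnajc3, in Ero1b and Pdia6 of 13 disulfide bond enzyme genes, and in Derl3 and Syvn1 of 17 degradation genes. Of the genes with an ERSE, Hspa5, Hsp90b1 and Creld2 rose in wild-type BMDMs, while Calr, Canx, Dnajc3 and Pdia6 were at 0.00, -0.02, -0.02 and 0.07 (limma adjusted p 0.835, 0.653, 0.585 and 0.0599), Ero1b fell by 0.78 on the log2 scale (adjusted p = 2.75e-07) and Syvn1 rose (0.48, adjusted p = 2.50e-06). In Nlrp3-/- BMDMs Hspa5, Hsp90b1, Creld2 and Syvn1 rose and Ero1b fell, and Calr, Canx, Dnajc3 and Pdia6 rose as well, at 0.30, 0.18, 0.15 and 0.31 (adjusted p = 1.22e-07, 0.000695, 0.00264 and 2.77e-06). The ATF4 composite site was found in 5 of 14 promoters of the PERK-ATF4-CHOP list, those of Atf3, Chac1, Nupr1, Slc7a11 and Vldlr, and not in that of Ddit3.

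Outside these lists, the 5 tested genes whose log2 values over the 12 libraries were most like those of Hspa5 were Susd2, Ifit3b, Cxcl11, Irgm2 and Zfp36 (Pearson's r 0.992 to 0.995). Those most like Ddit3 were Marcksl1, Mefv, Fmnl2, Cdc42ep2 and Inhba (r 0.991 to 0.994). These are descriptions over libraries that share 4 groups. Ifit3b went from 2.71 to 68.0 FPKM with LPS+ATP in wild-type and from 1.31 to 121 FPKM in Nlrp3-/- BMDMs, the order of groups seen for Hspa5. Marcksl1 went from 33.2 to 227 FPKM and from 68.8 to 192 FPKM, the order seen for Ddit3.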

How the data were processed

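The authors deposited 1 table of FPKM per gene and library. The submitters' processing notes name GRCm39 and DESeq2 1.24.0, while the aligner, the counter and the annotation are not given in the sources used here. Libraries were grouped by genotype and treatment from the labels, and the table held 0 per-library columns without a mapped sample. Depth in reads is unknown, and no count test was run.

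The test was limma 3.58.1 (R 4.3.3) on log2(FPKM + 1), over genes that reached 1 FPKM in 3 or more of the 12 libraries, with 1 mean per group, a trend in the variance and Benjamini-Hochberg adjustment over all 12622 genes, after the scripts were tested on simulated data. Genes passed at an adjusted p under 0.05 and were called with an absolute log2 fold change of at least 1 as well. The interaction is the stimulation effect in Nlrp3-/- minus that in wild-type BMDMs. The 9 genes and the lists were chosen with earlier results of these data known. The rule for naming genes of a list took the sensors and up to 3 passing genes with the largest change per comparison. Not every gene that the rule picked is named in the text. Genes named beyond this rule (Bbc3, Calr, Atf6b in wild-type, Edem1 in Nlrp3-/-, Ero1a in the interaction, and genes holding a motif) were chosen after their values were seen. Itgam, on 2 rows, was left out.

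Promoters came from RefSeq (GRCm38.p6), and the last 40 bases of 7 of 9, all but Xbp1 and Pdia4, were found in a transcript of the gene. Gene overlaps came from GENCODE M21, and blastn 2.17.0 found 0 near copies of the 9 genes at 95% identity. Alternatives were a pseudocount of 0.1, no filter or one of FPKM 5, TPM, median-ratio and upper-quartile scaling, no fold limit, a replicate block, other variance settings and leaving out each library.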

Additional observations from a re-analysis of the deposited data

Results flagged for a closer look

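The response to LPS+ATP differed between the genotypes by the interaction test in limma for 5 of the 9 genes. For Sdf2l1 the response was 0.83 higher on the log2 scale in Nlrp3-/- than in wild-type BMDMs (adjusted p = 2.89e-06). For Hspa5 it was 0.49 higher (adjusted p = 2.20e-06). For Creld2 it was 0.45 higher (adjusted p = 0.00225). For Hsp90b1 it was 0.24 higher (adjusted p = 0.000502). For Ddit3 the term was -0.72 (adjusted p = 6.88e-05).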

How the results depend on the processing

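For the 45 fold changes of the 9 genes, 936 alternative values were computed, of which 904 kept the direction and the side of the threshold, 10 fell short of it, 12 newly passed it and 10 changed sign. Without a fold limit the calls among the 9 genes were 8 and 7 for stimulation in wild-type and Nlrp3-/- BMDMs, 6 and 8 for genotype without and with LPS+ATP, and 5 for the interaction, and among the 97 pathway genes 68, 69, 60, 57 and 41. Most of all tested genes also passed with stimulation, 23.3% higher and 53.1% lower in wild-type and 20.6% and 53.8% in Nlrp3-/- BMDMs. For genotype the shares were 33.3% and 14.5% without and 35.9% and 12.6% with LPS+ATP, and for the interaction 14.7% and 13%. With LPS+ATP, 4 pathway genes were called between genotypes, 8 with a pseudocount of 0.1, 8 in TPM and 2 under median-ratio scaling, and the 2 called for the interaction became 6 with a pseudocount of 0.1 and 5 in TPM. Calls over all genes moved too. Between genotypes 565 higher and 72 lower became 1266 and 140, 1192 and 135, and 449 and 117 in the same order. For the interaction 91 and 180 became 272 and 362, and 231 and 374. Sign changes under median-ratio and upper-quartile scaling were those of Herpud1 with stimulation in Nlrp3-/- (0.16 and 0.00), Xbp1 between genotypes with LPS+ATP (-0.07 and 0.00) and the interaction of Pdia4 (-0.01 and -0.02), and under median-ratio scaling that of Dnajb9 between genotypes in control (-0.05). The value of Sdf2l1 in Nlrp3-/-, 0.00, ran from -0.02 to 0.03 when single libraries were left out, and was negative without Nlrp3-/- control replicate 2 (-0.02) and LPS+ATP replicates 2 and 3 (-0.01 and -0.02). Scaling changes these values by construction; the cause of the other changes was not tested. Correlations of same-numbered libraries across groups ran from -0.057 to 0.053, so no pairing by replicate number was seen. With 3 libraries in a group, this check cannot show that there was none. With a replicate block 2 of 9 genes were called with stimulation in wild-type and 2 in Nlrp3-/- BMDMs, as without it. FPKM without read counts sets no counting error on single values.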

Other observations

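The cytosolic heat shock proteins, which refold proteins outside the ER, were a list of 10 genes. In wild-type BMDMs all 10 rose with LPS+ATP (median log2 fold change 1.46), and in Nlrp3-/- BMDMs 9 rose and 1 fell (median 0.89), counts that were the same under median-ratio scaling. Of all genes, 23.3% rose in wild-type and 20.6% in Nlrp3-/- BMDMs. Hspa1a, the inducible HSP70, went from 1.18 ± 0.135 to 155 ± 2.58 FPKM in wild-type (SD, n = 3, log2 fold change 6.16, limma adjusted p = 1.10e-14) and from 1.96 ± 0.262 to 45.1 ± 0.221 FPKM in Nlrp3-/- BMDMs (3.97, adjusted p = 4.23e-13). Hspa1b, a near-identical gene whose reads may be shared with Hspa1a, gave 6.15 and 3.93. The gene that fell in Nlrp3-/- BMDMs was the small heat shock protein gene Hspb1 (-0.55, adjusted p = 0.000168), which stood at 1.67 FPKM in wild-type control against 10.5 FPKM in that of Nlrp3-/-. The interaction was negative and passed for 7 of 10 and positive for 0 (median -0.75), against 13% and 14.7% of all genes. The sign was that seen for Ddit3 and not for Hspa5.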
